A study of Mus musculus with 8 samples.

Results

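The VEGF family of the developing mouse retina was followed through the messenger RNA of its ligands Vegfa, Vegfb, Vegfc and Pgf, its receptor kinases Flt1, Kdr and Flt4, and its co-receptors Nrp1 and Nrp2. The members were chosen by gene symbol, and 9 of 10 listed symbols were measured, out of 16109 genes in the count table. Figf, the older symbol of the VEGF-D ligand, is not analysed here. All libraries came from whole retina of C57BL/6 mice at postnatal day 5. There were 4 libraries labelled C3 KO, with a genotype of C3 knockout, and 4 labelled WT, with a genotype of wild type. C3 is the protein on which the complement pathways converge. The hyaloid vessels had been removed at dissection, and how the C3 allele was made and how many animals stand behind a library are not given in the sources used here. Tests therefore measure the spread between these libraries. The series was set up to compare gene expression with and without C3 while the retinal vessels form.

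Retinal vessels grow outward from the optic nerve head during the first postnatal days of the mouse, over a bed of astrocytes that secrete VEGF-A. VEGF-A signals to endothelial cells mainly through VEGFR2, the product of Kdr. VEGFR1, the product of Flt1, binds VEGF-A tightly with a weak kinase and also exists as a soluble decoy. VEGFR3, the product of Flt4, answers VEGF-C and VEGF-D, VEGF-B and PlGF bind VEGFR1, and the neuropilins serve both VEGF and secreted semaphorins. Kdr is also made by neural cells of the neonatal retina, and gene counts do not separate the soluble and membrane forms of Flt1.

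The start regions of Vegfa, the leading ligand, and of Kdr and Flt1, its signalling and its decoy receptor, are shown because levels and ratios of these members carry most of the results below. They are RefSeq windows of build GRCm38.p6, from 250 bases before to 50 bases after the outermost start, on the minus strand, at chr17:46032328-46032627 for Vegfa, chr5:75978406-75978705 for Kdr and chr5:147725962-147726261 for Flt1. Capitals mark matches, on either strand, to the GC box GGGCGG, the Ets core AGGAAG, the cyclic AMP response element TGACGTCA, the TATA box TATAAA and the hypoxia response cores ACGTG and GCGTG.
Vegfa: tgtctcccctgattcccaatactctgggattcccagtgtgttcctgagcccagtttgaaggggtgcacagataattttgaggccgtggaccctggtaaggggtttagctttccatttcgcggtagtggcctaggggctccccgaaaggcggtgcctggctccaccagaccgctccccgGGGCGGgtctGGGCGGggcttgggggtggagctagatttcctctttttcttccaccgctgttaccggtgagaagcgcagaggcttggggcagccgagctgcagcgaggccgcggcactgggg
Kdr: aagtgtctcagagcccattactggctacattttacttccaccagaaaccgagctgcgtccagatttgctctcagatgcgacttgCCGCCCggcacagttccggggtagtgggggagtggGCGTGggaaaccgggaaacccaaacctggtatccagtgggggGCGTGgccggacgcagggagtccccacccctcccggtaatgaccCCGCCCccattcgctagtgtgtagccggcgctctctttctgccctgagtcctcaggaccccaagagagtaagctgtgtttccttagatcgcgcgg
Flt1: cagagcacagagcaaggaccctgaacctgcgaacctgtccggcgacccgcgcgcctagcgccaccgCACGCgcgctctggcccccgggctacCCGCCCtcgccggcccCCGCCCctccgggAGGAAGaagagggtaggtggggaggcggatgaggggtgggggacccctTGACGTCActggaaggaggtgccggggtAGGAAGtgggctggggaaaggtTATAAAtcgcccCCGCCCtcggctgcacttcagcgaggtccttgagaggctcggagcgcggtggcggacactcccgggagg
The Flt1 window, of 70.7% G and C, held 2 Ets cores, 1 cyclic AMP response element, 1 TATA box, 3 GC boxes and 1 GCGTG core. The Kdr window, of 60.7% G and C, held 2 GCGTG cores and 2 GC boxes, and the Vegfa window, of 62% G and C, held 2 GC boxes. None of the 3 windows held ACGTG. Among 32817 start windows of the same length, 1.79% held the cyclic AMP response element, 13.6% the TATA box, 35.4% the Ets core, 35.6% the GC box, 32.4% GCGTG and 19.6% ACGTG. A match describes the letters and is not a site of binding. The files' own build, mm9, differs from that of the windows, so no count was placed on them.

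The labels were checked on C3 first. C3 stood between 80.6 and 87.5 CPM (the reads of a gene scaled to the library total) in libraries labelled C3 KO, against 1.75 to 3.32 CPM in those labelled WT, which goes against the label. Gene counts do not show whether the targeted allele still gives a transcript or the labels are exchanged, so every direction below is that of the labels as deposited. Xist, which is transcribed from an inactive X, stood at 1.48 to 2.65 CPM in libraries labelled C3 KO and 295 to 2440 CPM in those labelled WT, and the mean of the Y-linked genes was 74.8 to 88.2 CPM and 0.448 to 75.8 CPM in the same order of labels. The library labelled WT replicate 3 carried both, with a Y-linked mean of 75.8 CPM and Xist at 295 CPM. WT replicates 2 and 4 had low Y-linked means of 5.05 and 3.71 CPM beside Xist at 2370 and 2190 CPM. Sex and label thus largely move together and cannot be told apart. Total counts ran from 16503564 to 19608824 reads. Retinal identity genes summed to 3640 to 4060 CPM in libraries labelled C3 KO and 4080 to 4390 CPM in those labelled WT, so the genes that define the tissue were present. Pigment epithelium and melanocyte markers summed to 317 to 351 CPM in libraries labelled C3 KO and 117 to 182 CPM in those labelled WT. Of these markers 12 of 16 were called higher, where 8.33% of all tested genes were. Whole retina is a mixture, in which fewer cells of a type and less RNA per cell cannot be told apart.

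No member of the VEGF family passed the test of a difference between the labels. In edgeR's quasi-likelihood test 0 of 9 members passed a Benjamini-Hochberg adjusted p of 0.05, where 14.3% of 15850 tested genes did, and 0 of 9 had an unadjusted p below 0.05. DESeq2 and limma-voom also called 0 of 9, each with 0 at an unadjusted p below 0.05. The values of the labels overlapped for each of the 9 members, and 17.4% of tested genes had no overlap. Shares of this size leave few genes in a set of 9, so these counts do not set the family apart from the table. All 9 members passed the filter on low counts. A test that does not pass does not show that the levels were alike, so each member is given with the 95% interval of its fold change from the edgeR model.

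**Figure D1:**
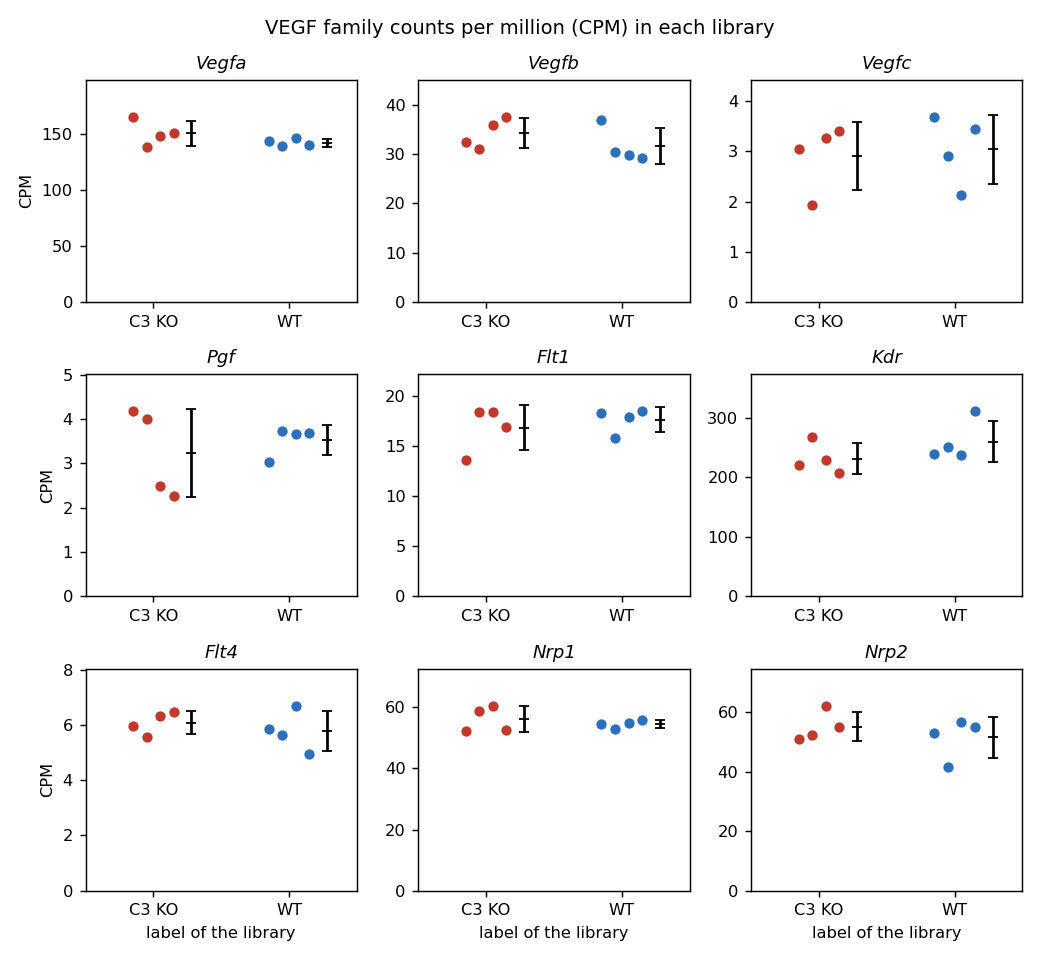
CPM of the 9 members in each library, with libraries labelled C3 KO in red and libraries labelled WT in blue, replicates 1 to 4 from left to right, and black bars for mean and SD (n = 4 each). The labels overlap in every panel, and Pgf shows the widest relative spread under the C3 KO label, at 2.27 to 4.18 CPM.

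Vegfa, the hypoxia-inducible ligand that guides vessel sprouts, was measured at 165, 138, 148 and 150.2 CPM under the C3 KO label, replicates 1 to 4, against 144, 139, 146 and 139.5 CPM under the WT label. The high value was C3 KO replicate 1, and the other libraries of that label lay close to those labelled WT. The fold was 1.06 (95% interval 0.983 to 1.14, edgeR adjusted p = 0.312), with 3 of 4 libraries labelled C3 KO above the WT-labelled mean. With 2675 reads per library on average, counting alone gives an error of 1.93% in 1 library. Vegfa and C3 lie on the same chromosome, 17, 11.2 Mb apart in the GRCm38 annotation. Pigment epithelium also makes VEGF-A, and its markers moved with the label as given above. Their part in the Vegfa level was not tested.

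Vegfb, a ligand of VEGFR1 linked to fatty acid uptake, stood at 32.5, 31.0, 35.9 and 37.6 CPM under the C3 KO label, against 37.0, 30.5, 29.9 and 29.2 CPM under the WT label. The library labelled WT replicate 1 lay with the highest of the other label, and the remaining libraries labelled WT lay below all those labelled C3 KO. The fold was 1.08 (95% interval 0.958 to 1.22, edgeR adjusted p = 0.41), and without WT replicate 1 the log2 fold change was 0.20 with an edgeR adjusted p = 0.105, against 0.11 with all libraries.

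Vegfc, the ligand that drives lymphatic growth through VEGFR3, was low, at 3.06, 1.93, 3.27 and 3.41 CPM under the C3 KO label and 3.69, 2.91, 2.13 and 3.44 CPM under the WT label. A low library stood in each label, C3 KO replicate 2 and WT replicate 3. Pgf, which encodes placental growth factor, read 4.18, 4.01, 2.48 and 2.27 CPM under the C3 KO label and 3.02, 3.73, 3.67 and 3.68 CPM under the WT label. The libraries labelled C3 KO fell on either side of those labelled WT. The folds were 0.957 for Vegfc (95% interval 0.691 to 1.32, edgeR adjusted p = 0.887) and 0.924 for Pgf (95% interval 0.681 to 1.254, edgeR adjusted p = 0.775). With 54.2 and 62.0 reads per library on average, counting alone gives 13.6% for Vegfc and 12.7% for Pgf. The spread between libraries was 23.2% under the C3 KO label and 22.7% under the WT label for Vegfc, and 30.8% and 9.50% for Pgf.

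Kdr, the main signalling receptor, was the member furthest from 0 on the log2 scale. It stood at 222, 268.5, 229 and 208 CPM under the C3 KO label, against 239, 252, 238 and 311 CPM under the WT label. WT replicate 4 was the highest library and C3 KO replicate 4 the lowest, and C3 KO replicate 2 exceeded 3 of the libraries labelled WT. The mean was 232 ± 26.1 CPM under the C3 KO label and 260.0 ± 34.7 CPM under the WT label (SD, n = 4 each), and the log2 fold change was −0.17 ± 0.10 (SE, edgeR adjusted p = 0.312). Its fold of 0.891 has a 95% interval of 0.765 to 1.04. Without C3 KO replicate 2 the log2 fold change was −0.25 with an edgeR adjusted p = 0.0764, and without WT replicate 4 it was the smallest of the fits with a library left out, at −0.07. The spread within a label, 11.3% and 13.3%, far exceeded the 1.49% expected from counting.

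Flt1, the receptor with a decoy form, stood at 13.7, 18.4, 18.4 and 16.9 CPM under the C3 KO label, against 18.3, 15.8, 17.9 and 18.5 CPM under the WT label. The low library was C3 KO replicate 1, the library with the highest Vegfa. The fold was 0.955 (95% interval 0.824 to 1.11, edgeR adjusted p = 0.728). Flt4 stood at 5.96, 5.57, 6.32 and 6.48 CPM under the C3 KO label, against 5.84, 5.65, 6.70 and 4.95 CPM under the WT label, where the highest and the lowest library both carried the WT label. Its fold was 1.05 (95% interval 0.851 to 1.29, edgeR adjusted p = 0.807).

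Nrp1, a co-receptor that endothelial tip cells, ganglion cells and microglia share, stood at 52.2, 58.9, 60.5 and 52.6 CPM under the C3 KO label, against 54.5, 53.0, 54.7 and 55.8 CPM under the WT label. The libraries labelled WT fell between the lower and the upper pair labelled C3 KO. Its fold of 1.03 has a 95% interval of 0.941 to 1.12 (edgeR adjusted p = 0.724). Nrp2, which pairs with VEGFR3 and with semaphorins, stood at 51.0, 52.4, 62.1 and 54.8 CPM under the C3 KO label, against 53.0, 41.5, 56.6 and 55.0 CPM under the WT label. WT replicate 2 was the lowest library and C3 KO replicate 3 the highest. Its fold of 1.07 has a 95% interval of 0.942 to 1.21 (edgeR adjusted p = 0.517). In the GRCm38 annotation an antisense gene, Gm29083, runs within Nrp2 without sharing its exons, and the microRNA gene Mir1903 overlaps an exon of Nrp1. The library kit keeps the strand, but whether counting used it was not given in the sources used here.

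**Figure D2:**
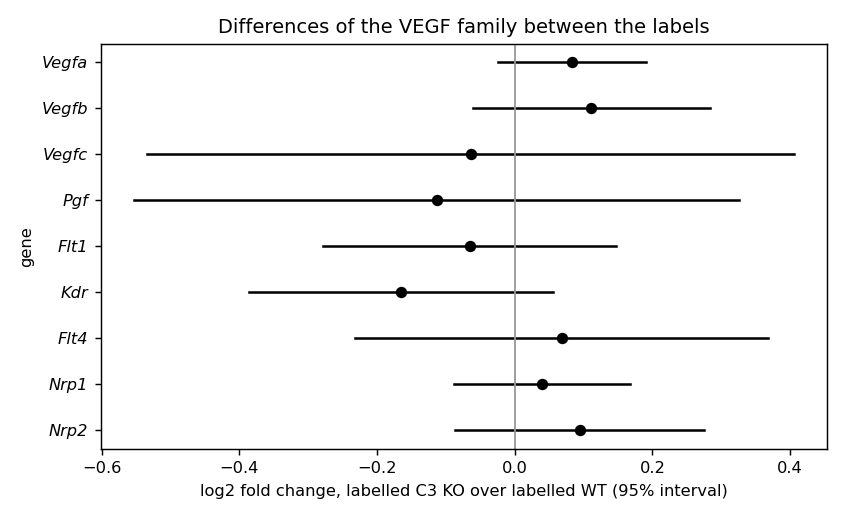
Log2 fold change of each member, libraries labelled C3 KO over libraries labelled WT (n = 4 each), with 95% intervals from edgeR. Every interval crosses 0, and those of Vegfc and Pgf, the members with fewest reads, are the widest.

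Levels of different genes were compared per length, on the authors' RPKM values (CPM divided by gene length in kilobases). Vegfa averaged 34.9 ± 2.54 RPKM under the C3 KO label and 33.2 ± 0.836 RPKM under the WT label, and Kdr averaged 31.7 ± 3.72 and 35.9 ± 4.90 RPKM (SD, n = 4 each). These leaders did not separate, since Vegfa was above Kdr in 5 of 8 libraries. Vegfb followed at a mean of 20.6 RPKM over the 8 libraries, then Nrp1 at 9.38 RPKM and Nrp2 at 5.62 RPKM, each below the member before it in 8 of 8 libraries. Pgf, Vegfc and Flt1 formed a low group at 2.21, 1.63 and 1.496 RPKM whose ranges overlapped, and Flt4 was lowest at 0.734 RPKM, below Flt1 in 8 of 8 libraries. Among the receptor kinases Kdr held 93.5 ± 0.764% of the summed RPKM under the C3 KO label and 94.0 ± 0.856% under the WT label (SD, n = 4 each). Among the measured ligands Vegfa held 58.2 ± 1.93% and 58.3 ± 2.20%, and Vegfb 35.6 ± 2.62% and 34.7 ± 2.36%, in the same order of labels. The lengths behind these values, read from the ratio of CPM to RPKM, were 11.5 kb for Flt1, 7.27 kb for Kdr and 8.09 kb for Flt4, and a shorter length for Flt1 would raise its level in proportion.

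**Figure D3:**
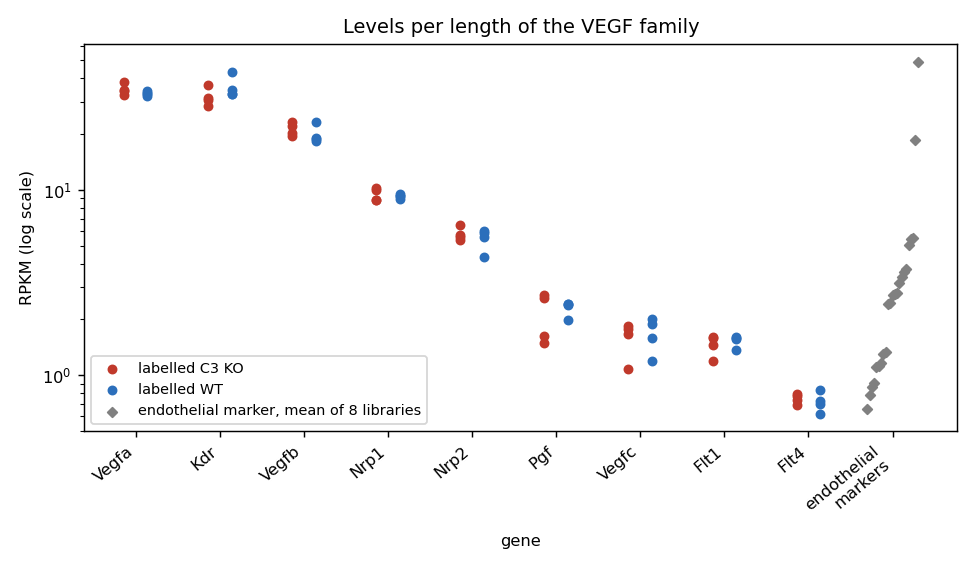
RPKM on a log axis for each member in every library, ordered by mean, with libraries labelled C3 KO in red and WT in blue, and the mean RPKM of 23 endothelial markers in grey. Kdr, at a mean of 33.8 RPKM, lies above 22 of the 23 markers, while Flt1 lies above 9 and Flt4 above 1.

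The receptors were then set against the endothelium measured in the same libraries. The 23 measured endothelial markers had a median of 2.71 RPKM and means from 0.66 to 49.3 RPKM. Pecam1 averaged 5.35 ± 0.475 RPKM under the C3 KO label and 4.71 ± 0.609 RPKM under the WT label, and Cdh5, the VE-cadherin gene, 5.59 ± 0.850 and 5.32 ± 0.378 RPKM (SD, n = 4 each). Kdr thus stood above Cdh5 and Pecam1, whereas Flt1 stood below both. Only Podxl, which encodes a sialomucin that is also found outside endothelium, had a higher mean than Kdr, at 49.3 RPKM. The endothelial list had 1 gene called higher and none lower, a share of 1 in 23 against 14.3% of all tested genes, with a median log2 fold change of 0.08 against 0.00 over all tested genes. That gene was Tek, at 13.4 ± 2.37 CPM under the C3 KO label and 9.46 ± 1.36 CPM under the WT label (SD, n = 4 each, edgeR adjusted p = 0.0151). The call of Tek ended after leaving out C3 KO replicate 3, C3 KO replicate 4 or WT replicate 4, at edgeR adjusted p-values of 0.0661, 0.0558 and 0.0536, and in limma on log2 RPKM. With the endothelial score as a covariate its log2 fold change was 0.36, against 0.50 without it (edgeR adjusted p = 0.0653). Without WT replicate 1 the list had 2 genes called higher, and without C3 KO replicate 2 it had 1 called lower.

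The log2 ratio of Kdr to the mean of the endothelial markers was 4.49 ± 0.214 under the C3 KO label and 4.75 ± 0.325 under the WT label (SD, n = 4 each), on log2 CPM. The difference of −0.257 had an exact permutation p = 0.286 (2-sided, 70 labellings, adjusted p = 0.667 over 7 ratios), and without WT replicate 4 it was −0.0995. The ratio of Flt1 to the markers was 0.716 ± 0.125 and 0.88 ± 0.196 in the same order, with an exact permutation p = 0.229 (adjusted p = 0.667). For Flt4 it was −0.729 ± 0.105 and −0.712 ± 0.130, with an exact permutation p = 0.8 (adjusted p = 0.8). The labels overlapped in all of these ratios. WT replicate 4 had the highest Kdr ratio, at 5.22, together with the lowest endothelial score of the 8 libraries.

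Ratios between members also overlapped between the labels. Vegfa over Kdr was −0.62 ± 0.241 under the C3 KO label and −0.864 ± 0.206 under the WT label (SD, n = 4 each, exact permutation p = 0.171, adjusted p = 0.667). Vegfa over Flt1, the ligand against its decoy receptor, was 3.16 ± 0.303 and 3.01 ± 0.0926 (exact permutation p = 0.486, adjusted p = 0.72), and C3 KO replicate 1 stood alone at 3.59. Without that library the difference was 0.00857, against 0.151 with it. Kdr over Flt1 was 3.78 ± 0.191 and 3.87 ± 0.184 (exact permutation p = 0.514, adjusted p = 0.72). Nrp1 over Nrp2 was 0.0262 ± 0.102 and 0.091 ± 0.179 (exact permutation p = 0.629, adjusted p = 0.734). With 4 libraries against 4 the smallest p is 0.0286.

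**Figure D4:**
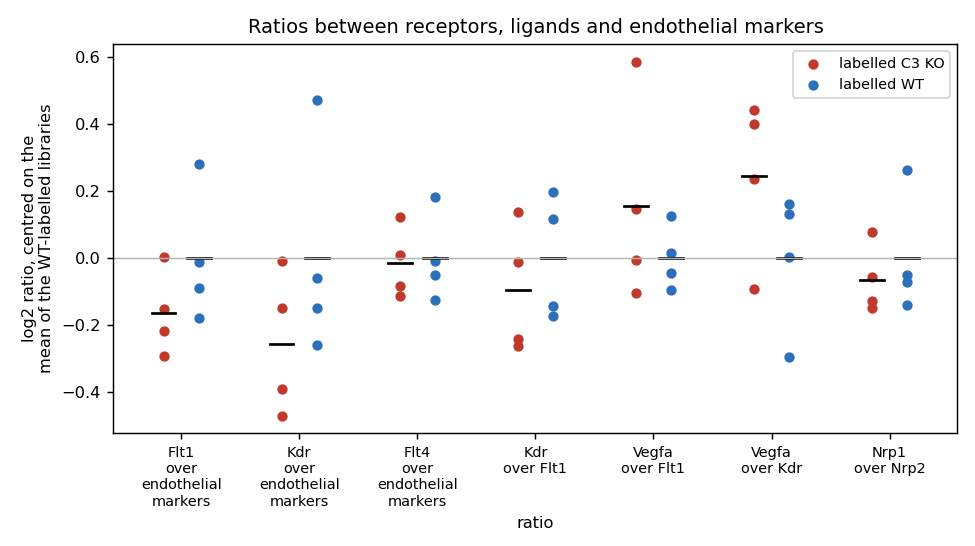
Log2 ratios in each library, centred on the mean of the libraries labelled WT, with libraries labelled C3 KO in red left of those labelled WT in blue and bars for group means. The labels overlap in all 7 ratios, and C3 KO replicate 1 stands apart in Vegfa over Flt1.

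Likeness to Vegfa and Kdr was taken from deviations of log2 CPM within a label, over 8 libraries that share their depth and scaling, and it carries no test. Among 12387 other genes of at least 5 CPM, Kdr was followed most closely by Tob1, an antiproliferative factor, Gtf3c2, a subunit of a polymerase III factor, the reelin receptor Lrp8, the homeobox factor Prox1 of horizontal cells and lymphatic vessels, and Dnahc8. Their Pearson correlations were 0.994, 0.988, 0.974, 0.973 and 0.973. Vegfa was followed by Gm14277, Rpl35a, Gm3788, Alkbh8 and C630043F03Rik at 0.976, 0.976, 0.966, 0.964 and 0.963.

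Around the family, every call among the semaphorin and plexin partners of the neuropilins was upward with all libraries in the fit. This list and the others were chosen with earlier results of these data known. Their shares beside those of all tested genes therefore describe and carry no test. Of 12 measured genes 5 were called higher and none lower, where 8.33% of all tested genes were called higher. The median log2 fold change was 0.20, and 9 of the 12 genes were positive. Plxna2, Plxnd1 and Sema3g were negative without a call, at −0.14, −0.07 and −0.26. Sema3c, a secreted semaphorin that binds neuropilins, stood at 6.87, 8.07, 7.22 and 8.81 CPM under the C3 KO label, against 4.00, 3.03, 3.03 and 1.93 CPM under the WT label, with no overlap. Its log2 fold change was 1.36 ± 0.18 (SE, edgeR adjusted p = 3.03e-05). Plxna3, a signalling partner of neuropilins, rose to 87.5 ± 4.02 CPM under the C3 KO label, against 64.3 ± 4.96 CPM under the WT label (SD, n = 4 each, edgeR adjusted p = 3.34e-05). Sema3a, Sema3b and Sema3d were the other genes called. The count was 3 after leaving out C3 KO replicate 3, C3 KO replicate 4 or WT replicate 3, 1 gene was called lower without C3 KO replicate 2, and Sema3c and Plxna3 passed in 8 of 8 fits that each left out 1 library. Nrp1 and Nrp2, the receptors of these ligands, did not pass, as given above, and ganglion cell markers, which express plexins, had 7 of 9 called higher, and 3 to 4 without C3 KO replicate 1, C3 KO replicate 3, C3 KO replicate 4 or WT replicate 2. The part of ganglion cells in this list was not tested.

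Among partners and restraints of the VEGF receptors 2 of 28 were called higher and 3 lower, a share near the 14.3% of all tested genes called in either direction, with a median of −0.01. Thbs1, a matrix protein that binds VEGF-A and restrains sprouting, rose to 41.0 ± 3.87 CPM under the C3 KO label, against 15.96 ± 3.77 CPM under the WT label (SD, n = 4 each, edgeR adjusted p = 1.04e-05). Fibroblast and sclera markers, which mark cells that also make Thbs1, had 5 of 8 called higher and none lower, with a median of 0.86. Of all tested genes 8.33% were called higher. The fibroblast and sclera markers summed to 18.2 to 26.6 CPM under the C3 KO label and 12.3 to 14.5 CPM under the WT label. Their count called higher was 5 without C3 KO replicate 1, 4 without WT replicate 1 and 3 without any other library. Pigment epithelium and melanocyte markers also moved with the label, as given above. With their score as a covariate the log2 fold change of Thbs1 was 0.41, against 1.36 without it (edgeR adjusted p = 0.871). The part of either set of markers in the Thbs1 level was not tested. Spry2, a feedback inhibitor of receptor kinases, fell to 32.7 ± 1.89 CPM, against 43.2 ± 1.60 CPM under the WT label (SD, n = 4 each, edgeR adjusted p = 0.000317). Thbs1 and Spry2 passed in 8 of 8 fits that left out 1 library, while the number called higher was 1 after leaving out C3 KO replicate 3, C3 KO replicate 4, WT replicate 2 or WT replicate 3. Of 31 genes that carry the signal of the receptors 3 were called higher and 2 lower, again near the 14.3% of all tested genes, with a median of −0.02. The clearest was Iqgap1, a scaffold that binds VEGFR2, at 112 ± 7.75 CPM under the C3 KO label and 158 ± 15.5 CPM under the WT label (SD, n = 4 each, edgeR adjusted p = 4.8e-05). The counts of this list moved past 1.5 times for each library left out other than WT replicate 1 and C3 KO replicate 2, down to 0 higher and 1 lower, and Iqgap1 passed in 8 of 8 such fits.

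Over all tested genes 8.33% were called higher and 5.98% lower. Genes that VEGF-A is known to induce in endothelium had 1 of 12 called higher and 2 lower, with a median of −0.15. Pgf was among the genes not called, and leaving out any of the 8 libraries ended at least 1 of these calls or added 1. Among the transcription factors that set Vegfa transcription under low oxygen, 1 gene was called in each direction. Hif1a was lower, at 548 ± 20.4 CPM under the C3 KO label and 665 ± 24.7 CPM under the WT label (SD, n = 4 each, edgeR adjusted p = 0.000379). Arnt2, a partner subunit gene, was higher, at 149 ± 8.61 and 108.5 ± 10.1 CPM (SD, n = 4 each, edgeR adjusted p = 3.45e-05). Arnt and Epas1 of the same list did not pass, at log2 fold changes of 0.02 (edgeR adjusted p = 0.888) and 0.35 (edgeR adjusted p = 0.19). In the HIF pathway 1 of 10 regulators was called higher, or 2 without WT replicate 1, and 2 were called lower. Of 18 HIF target genes other than Vegfa 9 were called lower and none higher, Egln3 being in both lists, with a median of −0.18, where 5.98% of all tested genes were called lower. Slc2a1, the glucose transporter of the barrier endothelium and glia, was at 180.4 ± 10.3 CPM under the C3 KO label and 215 ± 11.1 CPM under the WT label (SD, n = 4 each, edgeR adjusted p = 0.00188), with no overlap. The target count was 5 without C3 KO replicate 1, 3 without C3 KO replicate 4, 5 without WT replicate 2 and 4 without WT replicate 4, and it was 3 in limma on log2 RPKM, 3 with the endothelial score as a covariate and 1 with the Y-linked level as a covariate. Vegfa, itself a HIF target, did not pass, and the difference between Vegfa and these genes was not tested.

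Retinal astrocytes, the usual source of VEGF-A ahead of the vessels, had 3 of 8 markers called higher, where 8.33% of all tested genes were, and none lower, with a median of 0.39 and a summed level of 302 to 377 CPM under the C3 KO label and 223 to 285 CPM under the WT label. Pdgfra, the astrocyte receptor for platelet growth factor, rose to 214 ± 17.0 CPM under the C3 KO label, against 161 ± 17.0 CPM under the WT label (SD, n = 4 each, edgeR adjusted p = 0.000977). Gja1, a gap junction protein, rose to 22.6 ± 3.61 CPM, against 12.9 ± 1.34 CPM under the WT label (SD, n = 4 each, edgeR adjusted p = 5.29e-05), and Gfap, the glial filament, to 68.9 ± 12.5 CPM, against 46.1 ± 4.85 CPM (SD, n = 4 each, edgeR adjusted p = 0.00943). Without C3 KO replicate 2 the list had 5 genes called higher. With all libraries 6 of the 8 log2 fold changes were positive. Aldh1l1 and Aqp4 were negative without a call, at −0.41 and −0.32, with means of 2.68 and 0.622 CPM. Pdgfra was the largest part of the summed level. The score of the list, its mean log2 CPM centred on the libraries labelled WT, overlapped between the labels. It ran from 0.0568 to 0.51 under the C3 KO label and from −0.146 to 0.193 under the WT label. Lymphatic markers were sparse, with Lyve1 and Mmrn1 near or below 1 CPM, and of 4 measured genes Pdpn, which other retinal cells make, was called lower, a call that ended without C3 KO replicate 4 and became 2 calls without WT replicate 4. Pericyte and smooth muscle markers had none of 11 called. Microglia markers had 3 of 12 called higher, where 8.33% of all tested genes were. The microglia count became 5 without C3 KO replicate 2 and 7 without WT replicate 1. All 12 microglia log2 fold changes were positive, with a median of 0.28. The microglia score did not overlap, at 0.289 to 0.498 under the C3 KO label and −0.139 to 0.242 under the WT label. Plvap of fenestrated endothelium did not pass. Red blood cell markers, the content of vessels, had 5 of 5 called lower, where 5.98% of all tested genes were. They summed to 18.1 to 23.2 CPM under the C3 KO label and 28.5 to 51.2 CPM under the WT label.

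The score of the pigment epithelium markers correlates with the label at 0.937, and with this score as a covariate 8 genes of the whole table were called. None of Tek, Sema3c, Plxna3, Thbs1, Spry2, Iqgap1, Hif1a, Arnt2, Slc2a1, Pdgfra, Gja1 and Gfap was among them. Their log2 fold changes moved unequally in that fit. Iqgap1 was at −0.62, against −0.49 without the covariate, Arnt2 at 0.34, against 0.46, and Hif1a at −0.20, against −0.28. Spry2 was at −0.24, against −0.40. Sema3c was at −0.0391, against 1.36, Gfap at 0.0174, against 0.58, and Slc2a1 at −0.00236, against −0.25. Thbs1 was at 0.41, against 1.36, Plxna3 at 0.14, against 0.44, and Pdgfra at 0.05, against 0.41. Gja1 was at 0.12, against 0.81, and Tek turned to −0.22, against 0.50. The smallest edgeR adjusted p among these genes in that fit was 0.462, for Iqgap1. These markers and the label cannot be told apart. With the level of Y-linked genes as a covariate, which correlates with the label at 0.732, the call of Tek ended at a log2 fold change of 0.39 (edgeR adjusted p = 0.311) and that of Gfap at 0.71 (edgeR adjusted p = 0.0501). In that fit 1 HIF target was called lower, 3 semaphorin and plexin genes, 2 ganglion cell markers and 2 fibroblast markers were called higher, and 2 red blood cell markers were called lower. Among partners and restraints 1 gene was called in each direction, no signal transducer was called higher and 1 was called lower, and no VEGF-inducible gene was called.

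**Figure D5:**
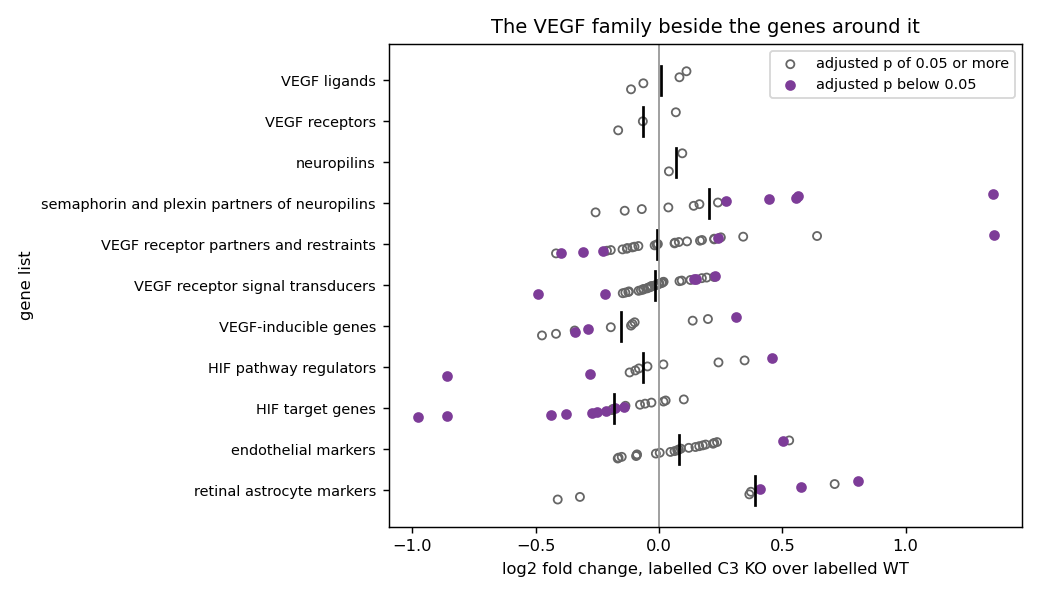
Log2 fold changes, libraries labelled C3 KO over libraries labelled WT, for the 9 members in the top rows and for the lists around them, with filled points for an edgeR adjusted p below 0.05 and a bar at each median. All 9 members lie between −0.17 and 0.11 without a call, while Sema3c and Thbs1 reach 1.36.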

How the data were processed

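Poly(A) RNA was sequenced from 8 retinal libraries with a kit that keeps the strand, per the labels' protocols. Raw counts, as whole reads for each gene and library, are 1 deposited table, and log2 RPKM from the authors is the other. STAR, HTSeq and the builds mm9 and NCBIM37 are named, per the submitters' processing notes, without versions. Each log2 RPKM value matched log2(count + 2) to 0.0133 after removal of gene and library constants, and was turned back to RPKM with those added reads kept, which raises low genes slightly. Every listed gene has at least 15 reads in a library, and depth ran from 16503564 to 19608824 reads.

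The analysis ran edgeR 4.0.16 under R 4.3.3: expression filter (15850 of 16109 genes kept), TMM scaling, robust quasi-likelihood test of C3 KO over WT without covariates, and Benjamini-Hochberg adjustment over all tested genes, called below 0.05. Standard errors and 95% intervals come from the fold change and its F statistic, and log2 CPM used a prior count of 2. No pair of libraries with the same label agreed within sampling noise (chi-square per degree of freedom at least 3.72). Ratios used exact permutation tests. Alternatives were DESeq2 1.42.0, limma 3.58.1 and those in the closing section. Members and lists were chosen with earlier results of these data known. Named genes are all members, C3, up to 4 genes of smallest p per list, and the 5 genes most like Vegfa and Kdr. Sema3d, Cdh5, Plxna2, Plxnd1, Sema3g, Aldh1l1, Aqp4, Arnt and Epas1 were named after their values were seen. Of the rule's genes only those a statement turns on are printed.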

Additional observations from a re-analysis of the deposited data

Results flagged for a closer look

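In 2 of 18 sets of 4 libraries, for 9 members under each label, the outermost library lay far from the others by Dixon's gap criterion at 95%, and chance gives about 1 in 20. Both were the library labelled WT replicate 1. Vegfb stood there at 37.0 CPM, with 29.2 to 30.5 CPM in the other libraries labelled WT. Pgf stood there at 3.02 CPM, with 3.67 to 3.73 CPM in the others.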

How the results depend on the processing

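No member was called in any of the 22 alternative fits, and the smallest adjusted p was 0.0764, for Kdr without C3 KO replicate 2. An unadjusted p below 0.05 was reached by 1 member without WT replicate 1, 2 without C3 KO replicate 2 and 1 with the Y-linked covariate. Directions of members that did not pass turned in 8 of 126 fold changes from other settings. With the Y-linked covariate Vegfc was 0.40 and Flt4 −0.0572. With the pigment epithelium score, which correlates with the label at 0.937, Vegfb was −0.33, Vegfc 0.0360, Pgf 0.50, Kdr 0.36, Flt4 −0.35, Tek −0.22, Pecam1 −0.43 and Sema3c −0.0391. With the endothelial score Pgf was 0.0148. With 1 library left out the log2 fold changes ran from −0.21 to 0.0896 for Vegfc, −0.26 to 0.0147 for Pgf, −0.12 to 0.0224 for Flt1, −0.00456 to 0.14 for Flt4, −0.00362 to 0.0713 for Nrp1 and −0.00558 to 0.13 for Nrp2. The log2 ratio differences ran from −0.062 to 0.0445 for Flt4 over endothelial markers, −0.112 to 0.0226 for Nrp1 over Nrp2, −0.344 to −0.0995 for Kdr and −0.223 to −0.0719 for Flt1 over endothelial markers, −0.171 to −0.0276 for Kdr over Flt1, 0.00857 to 0.237 for Vegfa over Flt1 and 0.147 to 0.356 for Vegfa over Kdr. Of all tested genes 1321 were called higher and 948 lower. The number higher was 819 and 808 by limma on log2(RPKM + 1) and log2(RPKM + 0.1). It was 349 with 181 lower under the Y-linked covariate, and 4 with 4 lower under the pigment epithelium score. With 1 library left out 761 to 1516 were higher and 544 to 1027 lower. The cause of these changes was not tested. Scaling moved the median log2 fold change of all genes by less than 0.01. Same-numbered libraries had correlations of −0.06 to 0.09, so the numbers do not pair them. With the replicate block 2400 genes and no member were called, and Gfap lost its call at a log2 fold change of 0.56, against 0.58 without the block, and an adjusted p of 0.0945. The smallest p of a permutation within replicate numbers is 0.125.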
